A study of Mus musculus with 48 samples.

Results

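The genes described here are the initiation and elongation factors of cytosolic translation in mouse gastrocnemius muscle, together with the proteins that repress or modify them. Members were the protein-coding genes of the count table whose symbol begins with Eif or Eef, leaving out 1 gene on the Y chromosome, which gave 68 of 54532 genes. They comprise 12 factors of start codon recognition and of the ternary complex that carries the initiator tRNA, 5 subunits of eIF2B, 14 of eIF3, 13 cap-binding and helicase factors with their partners, 3 eIF4E-binding repressors, 4 kinases of eIF2 alpha, 10 elongation factors and their relatives, 6 enzymes that modify elongation factors, and Eif1a, which was put in no role. The rule reads the symbol alone and no measured value.

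In eukaryotic cells the eIF4F complex, made of the cap-binding protein eIF4E, the scaffold eIF4G and the helicase eIF4A, brings an mRNA to the small ribosomal subunit, which eIF3 and the eIF2 ternary complex have prepared for scanning. The mTORC1 kinase releases eIF4E from the 4E-binding proteins by phosphorylating them, and kinases that sense stress, such as those encoded by Eif2ak3 and Eif2ak4, slow initiation by phosphorylating eIF2 alpha. Elongation is driven by eEF1A, which delivers aminoacyl-tRNA, and by eEF2, which moves the ribosome along; adult muscle fibres use the eEF1A isoform encoded by Eef1a2, while most other cell types use that encoded by Eef1a1.

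The study gave mice perfluorooctanesulfonic acid (PFOS), a persistent surfactant, at 0, 1 or 10 mg/kg/day by oral gavage for 21 days, and sequenced mRNA of 48 gastrocnemius muscles, 1 library per mouse. Mice were hCYP2B6-Tg, which carry the human drug-metabolising gene CYP2B6, or Cyp2b-null, and of both sexes, so that 4 strata of genotype and sex each had 3 doses. There were 4 mice in each of the 12 groups, apart from 5 untreated hCYP2B6-Tg males and 3 Cyp2b-null males on the high dose, which made 17, 16 and 15 mice at 0, 1 and 10 mg/kg/day. The mouse ages, the promoter of the transgene and the strain background are not given in the labels used here, and no untransgenic wild-type group was among these samples.

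Total counts ran from 11571142 to 19921061 per library, with a median of 14420691. The summed level of 7 muscle fibre genes was 123400 to 182900 CPM, meaning counts scaled to a library of 1e+06 reads, at 0 mg/kg/day, and that of 8 liver genes had a median of 0.068 CPM, although the extraction protocol in the labels speaks of another tissue, the liver. At 10 mg/kg/day the muscle fibre sum was 72690 to 142900 CPM, with 5 of 7 genes lower and 1 higher. The sum of 10 adipocyte markers was 629 to 3004 CPM against 359 to 917 CPM at 0, with 9 of 10 higher. Of 7 lymphocyte and lymph node markers 6 rose, with a median log2 fold change of 2.84, although their sum had a median of 3.54 CPM at both 0 (1.53 to 87.4) and 10 mg/kg/day (1.30 to 133). All 3 erythroid markers fell, with a sum of 28.0 to 163.4 CPM at 0 and 19.4 to 89.5 CPM at 10 mg/kg/day. Of 4 tendon markers 2 fell and none rose, with a median log2 fold change of -0.706. Of 5 nerve, 4 endothelial and 4 macrophage markers 1 each rose, and 1 endothelial marker fell. Of 4 liver genes tested 1 rose, and the median of the liver sum was 0.77 CPM on the high dose. These marker calls stand beside 25.0% of all genes higher and 22.5% lower, at an adjusted p below 0.05 in the edgeR test described below. The nerve, endothelial, macrophage and liver counts of 1 lie near those shares. Within each of the 4 strata the numbers in the library names rose with dose without overlap, though not across strata. What these numbers stand for is not given in the labels used here, and their part in the results was not tested. Apart from the rest stood 6 libraries with over 1000 Alb counts or over 30 Glycam1 counts, of which 4 were at 10 mg/kg/day.

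Sequences around the annotated transcription start are shown because mRNAs of many translation factors are known to begin with a 5′ terminal oligopyrimidine (TOP) tract, a C followed by pyrimidines, which places them under mTORC1 control. Of the 68 members, 52 matched the RefSeq promoter table (GRCm38.p6). Each line gives 30 bases, 5 before to 25 after the start, 5′ to 3′ on the coding strand, with the first run of a C followed by at least 4 pyrimidines in capitals as far as the window shows it.
Eif3f, chr7:108934410-108934439 (+): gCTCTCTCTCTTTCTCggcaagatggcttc
Eif2s3x, chrX:94212627-94212656 (-): ttttCCTTTTCTCTCCgagcaagatggctg
Eef2, chr10:81176626-81176655 (+): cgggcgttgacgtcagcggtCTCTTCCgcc
Eef1a1, chr9:78481700-78481729 (-): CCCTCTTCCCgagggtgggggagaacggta
Eef1a2, chr2:181156991-181157020 (-): tctgcgttctcgctcactggttCTCTCCCT
The first pair, Eif3f and Eif2s3x, were the members with a C and at least 4 pyrimidines exactly at the annotated start, 2 of 52 (3.8%) against 3.01% of the 27025 genes in the table. In a second search, chosen after the first result was seen, the run could begin anywhere from 5 bases before to 20 after the start: 20 of 52 members (38.5%) held one, against 36.8% of all genes. Of those 20 members 10 rose at 10 mg/kg/day, and of the 32 without such a run 16 did. Both motif shares, 3.8% and 38.5%, lie near those of all genes, 3.01% and 36.8%. The counts of members that rose stand beside 25.0% of all genes tested. An annotated start that is off by a few bases would miss a true TOP tract. The composite element TGATGNAA, bound by ATF4 with its partners, was searched on both strands from 250 bases before to 50 after the start. It was found for 2 of 52 members, Eef2k and Eif2s3x, and for 4.51% of genes. For Eef2k it did not lie in all of the annotated windows. Eif4ebp1 was not among the members matched, so its promoter was not searched for either motif.

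At 0 mg/kg/day the factors spanned a wide range of transcript levels, compared here as CPM per kilobase of gene length. Eef1a2 stood first with 922 ± 82.9 (SD, n = 17), followed by Eef2 with 531 ± 45.4, Eif1 with 242 ± 22.8, Eef1g with 154 ± 14.1 and Eif5a with 154 ± 19.0. The neighbours Eef1g and Eif5a did not differ beyond their spread, nor did Eif4g1 with 114 ± 7.44 and Eef1a1 with 97.8 ± 26.9. The kinases of eIF2 alpha were low: Eif2ak1, the haem-regulated kinase, had 11.5 ± 0.751 CPM per kb and the other kinases had between 0.758 and 1.18. Too few counts for a test were found for 2 members: Eef1akmt3, with 68 counts in all and none in 17 libraries, and the oocyte-type cap-binding gene Eif4e1b, with 37 counts and none in 35 libraries. A count of 0 in a library still allows up to 3 counts there, for counting error only.

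Summed over all 68 members, translation factor mRNAs took 1.11 ± 0.031% of counts at 0 mg/kg/day (n = 17), 1.13 ± 0.042% (n = 16) on the low dose and 1.46 ± 0.147% (n = 15) on the high dose. The 15 mice at 10 mg/kg/day ranged from 1.23 to 1.72% and those at 0 from 1.06 to 1.18%, so that no mouse at the high dose fell within the control range. These shares are of unscaled library totals, a scale on which the median log2 fold change of all genes tested was also above 0, at 0.25.

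At 10 against 0 mg/kg/day, averaged over the 4 strata, 35 of the 66 members tested rose, 5 fell and 26 did not pass, at a Benjamini-Hochberg adjusted p below 0.05 in edgeR's quasi-likelihood test over 15583 genes. Of all genes tested, 47.5% passed, 25.0% higher and 22.5% lower, and no test of the list as a whole was run. The median log2 fold change was 0.18 over members and 0.036 over all genes. Without the 6 libraries that stood apart 33 members were higher and 5 lower, beside 3312 and 2837 of 15581 genes. With the adipocyte marker level as a covariate these were 33 and 4, beside 2739 and 2576 of 15583 genes. In 34 of the 40 members called, every stratum moved in 1 direction, against 82.6% of all genes called. All fold changes below are on the log2 scale with trimmed mean (TMM) scaling of library size. On library totals without that scaling 55 members were higher and 2 lower, while the median of all genes moved to 0.25, so directions of small changes hold only relative to that median. In bulk tissue, fewer cells of a type and less RNA per cell cannot be told apart.

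**Figure D1:**
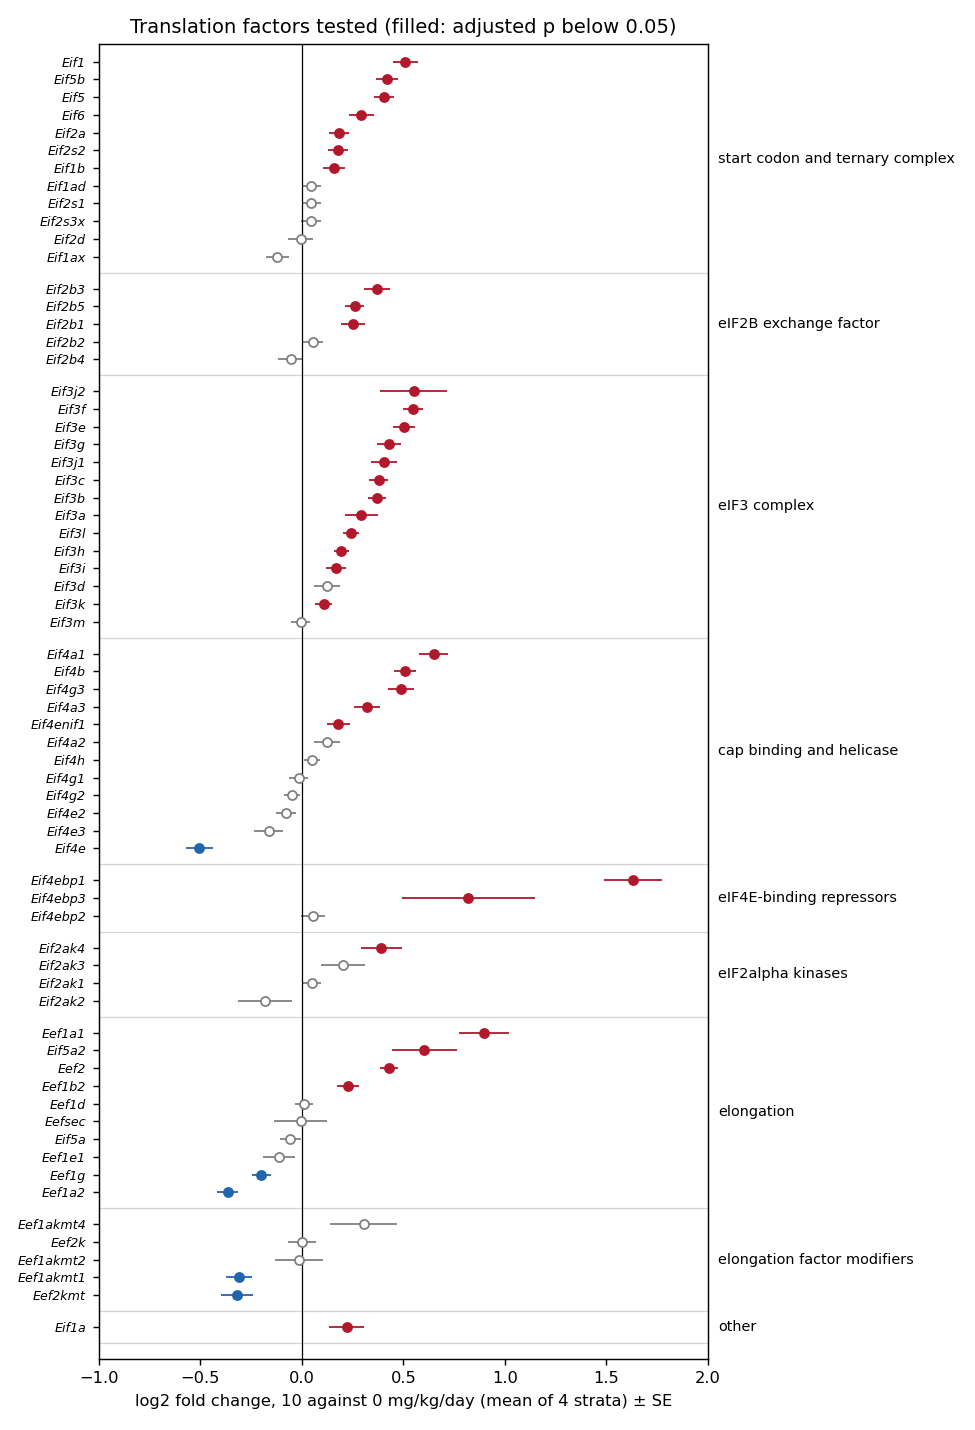
Log2 fold change at 10 against 0 mg/kg/day (x axis, mean of the 4 strata, bars are 1 SE) for each of the 66 members tested (y axis), grouped by role; filled points passed at adjusted p below 0.05, red higher and blue lower, and open grey points did not pass. Nearly the whole eIF3 block lies to the right of 0, Eif4ebp1 lies farthest right at 1.63 and Eif4e farthest left at -0.50.

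The eIF4E-binding proteins, which hold eIF4E away from eIF4G, included the member with the largest rise. Eif4ebp1 (ENSMUSG00000031490, chromosome 8, 27260329 to 27276674, plus strand in GRCm38) had 32.0, 40.5 and 63.1 CPM as lowest, median and highest of the mice at 0 mg/kg/day, 31.5, 44.2 and 61.0 at 1 mg/kg/day, and 51.0, 129 and 299 at 10 mg/kg/day. Thus 1 and 0 mg/kg/day covered the same range, and only the lowest mice at 10 mg/kg/day reached into it. The rise was 1.63 ± 0.143 (log2 ± SE, edgeR adjusted p = 6.5e-12).

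Stratum by stratum the high-dose values of Eif4ebp1 differed widely. In hCYP2B6-Tg females they were 88.4, 299, 142.8 and 65.1 CPM against 51.1, 38.6, 40.0 and 38.9 CPM at 0, and in hCYP2B6-Tg males 107.3, 129, 206 and 139 CPM against 46.9, 49.6, 43.6, 63.1 and 40.5 CPM. In Cyp2b-null males they were 148, 170 and 197 CPM against 38.7, 40.2, 50.4 and 48.7 CPM, with no overlap in these 3 strata. In Cyp2b-null females 119.3, 51.0, 129 and 53.8 CPM stood against 38.2, 36.1, 50.6 and 32.0 CPM: replicates 1 and 3 were more than double the highest control and replicates 2 and 4 lay just above it. The same replicates 1 and 3 had the higher Eef1a1 and Eif4a1 levels of that group, and members took 1.58 and 1.65% of their counts against 1.22 and 1.23% in replicates 2 and 4. Replicate 3 was 1 of the 6 libraries that stood apart. The stratum changes in Eif4ebp1 were 1.82 ± 0.288, 1.58 ± 0.266, 1.95 ± 0.303 and 1.17 ± 0.284 in the order given, all past the threshold, and without replicate 2 of the hCYP2B6-Tg females, the highest mouse, that stratum gave 1.23.

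Eif4ebp2, the 4E-binding protein with the most counts here, had 309, 384 and 523 CPM (lowest, median, highest) at 0 mg/kg/day and 315, 408 and 493 CPM at 10 mg/kg/day. These ranges all but coincide, and its change of 0.054 ± 0.0587 did not pass (edgeR adjusted p = 0.47). Eif4ebp3 was barely detected, with 254 counts in all and no count in 3 libraries, and its reads may be shared with Ankhd1, which overlaps it on the same strand. Its level was 0 to 0.698 CPM at 0 and 0.205 to 0.913 CPM at 10 mg/kg/day. Its change of 0.82 ± 0.329 (edgeR adjusted p = 0.037) was lost when any of 11 single mice was left out, to an edgeR adjusted p of 0.12 without Cyp2b-null male replicate 3 on the high dose. It was also lost with the adipocyte covariate, at 0.46 (adjusted p = 0.39).

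**Figure D2:**
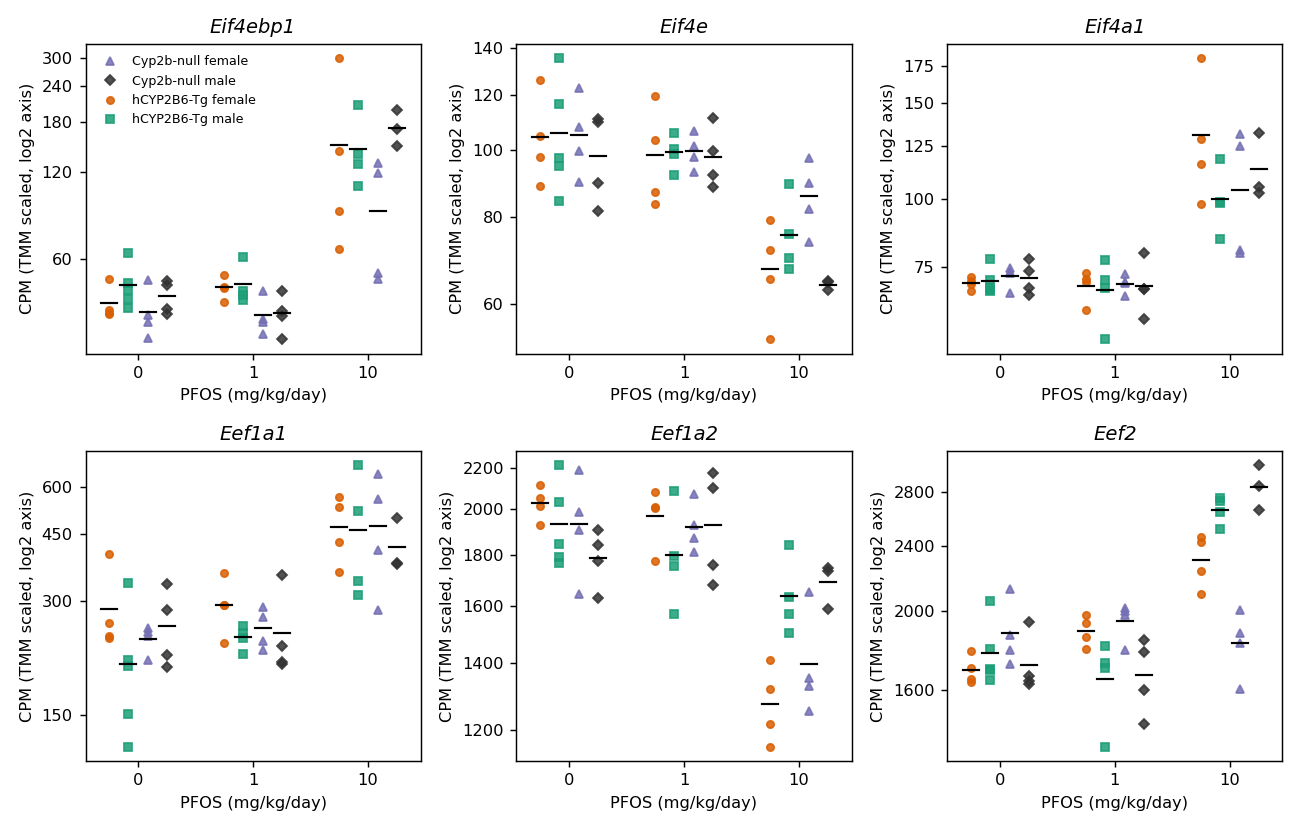
Level of 6 members in each of the 48 mice, in CPM with TMM scaling on a log2 axis, against PFOS dose; each point is 1 mouse, symbols mark the 4 strata and short black lines the group means. At 10 mg/kg/day Eif4ebp1, Eif4a1 and Eef1a1 lie higher and Eif4e and Eef1a2 lower than at 0, while Eef2 is higher in 3 strata and not in Cyp2b-null females.

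Among the cap-binding and helicase genes, 5 of 12 tested rose and 1 fell, beside 25.0% and 22.5% of all genes. The median log2 fold change was 0.088. The one that fell was Eif4e itself (ENSMUSG00000028156, chromosome 3, 138526179 to 138559696, plus strand). Its levels were 81.7, 99.4 and 135 CPM (lowest, median, highest) at 0 mg/kg/day, 83.6, 99.0 and 120 CPM at 1 mg/kg/day and 53.3, 71.7 and 97.3 CPM at 10 mg/kg/day. The lower part of the high-dose range lay below every control and the upper part within it. The change was -0.50 ± 0.068 (edgeR adjusted p = 7.9e-08), from -0.63 in hCYP2B6-Tg females to -0.29 in Cyp2b-null females, where it did not pass (adjusted p = 0.15). It was -0.28 on unscaled library totals, still past the threshold.

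The helicase eIF4A has paralogous forms, of which Eif4a2 is the more abundant in this muscle. Eif4a1 rose by 0.65 ± 0.070 (edgeR adjusted p = 6.9e-10), with 66.7, 70.5 and 77.6 CPM (lowest, median, highest) at 0 and 79.4, 105.1 and 181 CPM at 10 mg/kg/day. The ranges did not overlap. Eif4a2 changed by 0.13 ± 0.063, which did not pass (adjusted p = 0.099), and passed at 0.25 (adjusted p = 0.0045) when the adipocyte marker level was a covariate. A processed copy related to eIF4A could share reads with either gene, and near-identical copies were not separated by the counting as far as is known.

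The scaffold genes also parted. Eif4g3 rose by 0.49 ± 0.065 (edgeR adjusted p = 6.7e-08), from a median of 269 to 358 CPM with overlapping ranges, whereas Eif4g1, the main scaffold, went from a median of 811 to 789 CPM, a change of -0.016 ± 0.048 that did not pass (adjusted p = 0.81) and was 0.20 on library totals. Eif4b, the cofactor that stimulates eIF4A, rose by 0.51 ± 0.055 (adjusted p = 8.0e-10), from 272, 302 and 372 CPM to 276, 460 and 586 CPM. The ranges overlapped, and the change in Cyp2b-null females was 0.097.

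Ratios between partners within a library do not depend on the scaling of library size. The ratio of Eif4ebp1 to Eif4e, each per kb, had a median of 1.17 (0.969 to 1.69) at 0 mg/kg/day, 1.25 (0.779 to 1.58) at 1 mg/kg/day and 5.01 (1.51 to 15.4) at 10 mg/kg/day. Its log2 difference between 10 and 0 was 2.03, and all 15 high-dose mice lay above the control mean of their stratum. The ratio of Eif4a2 to Eif4a1 went from a median of 4.61 (3.78 to 5.41) to 3.09 (2.14 to 4.13), a log2 difference of -0.52, and that of Eif4g3 to Eif4g1 from 0.207 (0.189 to 0.258) to 0.291 (0.248 to 0.360), a difference of 0.50. Each of these had p = 1e-05 in a two-sided test of 100000 permutations of dose within strata, the smallest p that this number can give, and 1.25e-05 adjusted over 5 ratios. The direction was shared by 15 of 15 high-dose mice for every one of them, and the ranges at 0 and 10 mg/kg/day overlapped at their edges.

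**Figure D3:**
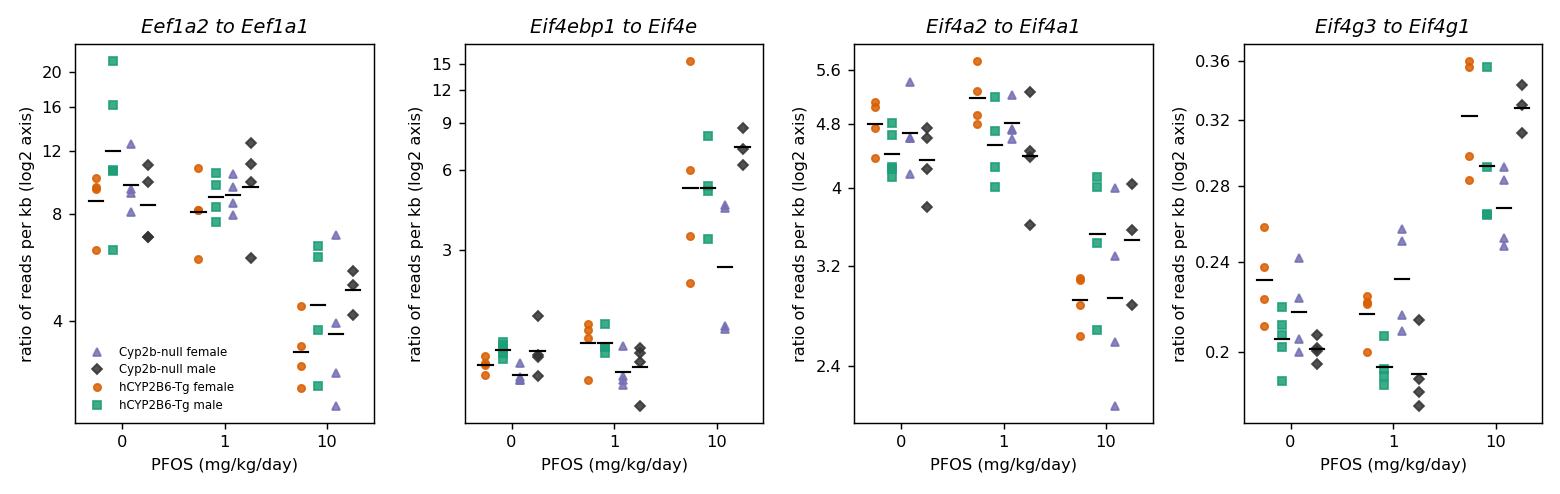
Ratio of reads per kb between 4 pairs of members in each mouse (log2 axis) against PFOS dose; each point is 1 mouse, symbols mark the strata and black lines the geometric mean of a group. At 10 mg/kg/day the Eef1a2 to Eef1a1 and Eif4a2 to Eif4a1 ratios lie lower, and the Eif4ebp1 to Eif4e and Eif4g3 to Eif4g1 ratios higher, than at 0, with the mice at 1 mg/kg/day within or near the control range.

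In the eIF3 complex, a large scaffold of initiation, 12 of 14 genes rose and none fell, with a median log2 fold change of 0.332, beside 25.0% of all genes that rose. Leaving out each mouse in turn gave 11 to 13 genes higher. Eif3f had 116, 129 and 161.3 CPM (lowest, median, highest) at 0, 98.0, 129 and 143.9 CPM at 1 and 162.7, 185 and 246 CPM at 10 mg/kg/day. Its control and high-dose ranges did not overlap, and the rise of 0.55 ± 0.0495 (edgeR adjusted p = 1.2e-11) passed in every stratum. Eif3e rose by 0.50 ± 0.052 and Eif3g by 0.43 ± 0.060, both with ranges that overlapped. Eif3j2 rose by 0.55 ± 0.165 (adjusted p = 0.0055), but it is a near copy of Eif3j1 with few counts, and without the 1 hCYP2B6-Tg female that reached 18.7 CPM the change was 0.41 (adjusted p = 0.021). The pair that did not pass were Eif3d with 0.12 and Eif3m with -0.0057. By stratum, Eif3a passed only in hCYP2B6-Tg females, at 0.75. It was 0.16 in hCYP2B6-Tg males, -0.024 in Cyp2b-null females and 0.29 in Cyp2b-null males. Eif3i and Eif3j2 passed in no stratum. On unscaled totals all 14 genes were higher, beside 7519 of all 15583 genes.

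Of the 12 genes for start codon recognition and the ternary complex, 7 rose and none fell, beside 25.0% and 22.5% of all genes. Their median was 0.169. Eif1, which guards the choice of the start codon, rose by 0.51 ± 0.060 (edgeR adjusted p = 4.8e-09), from 427, 502 and 632 CPM (lowest, median, highest) to 473, 762 and 826 CPM. Most high-dose mice lay above the control range and the lowest within it. Eif5b, which joins the ribosomal subunits, rose by 0.42 ± 0.056 and Eif6, which keeps the large subunit apart from the small one, by 0.29 ± 0.061. Eif5 encodes the factor that triggers GTP hydrolysis by eIF2. It ran from 210 to 269 CPM at 0 and from 275 to 389 CPM at 10 mg/kg/day, without overlap, and passed in 3 strata, with 0.25 (adjusted p = 0.094) in Cyp2b-null males.

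Of the genes for eIF2 itself, the beta subunit Eif2s2 rose by 0.18 ± 0.0503 (edgeR adjusted p = 0.0032) and the gamma subunit Eif2s3x did not pass, at 0.044 ± 0.0481 (0.26 on library totals, where it did). Eif2s1, the alpha subunit that the stress kinases phosphorylate, had medians of 38.7 and 40.0 CPM at 0 and 10 mg/kg/day, with a change of 0.046 ± 0.0471 that did not pass (edgeR adjusted p = 0.45). The exchange factor that reloads eIF2 with GTP is eIF2B. Of its 5 subunits 3 rose and none fell, beside 25.0% and 22.5% of all genes, with a median of 0.252. Eif2b5, its catalytic subunit, rose by 0.26 ± 0.0455 (adjusted p = 9.7e-06), from 62.8, 69.7 and 78.4 CPM to 69.0, 88.0 and 98.7 CPM.

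Of the 4 kinases of eIF2 alpha, 1 passed, beside 47.5% of all genes. Eif2ak4, which encodes the amino acid sensor GCN2, had 7.21, 8.79 and 11.2 CPM (lowest, median, highest) at 0 and 7.56, 10.8 and 30.6 CPM at 10 mg/kg/day. The ranges overlapped, and a single hCYP2B6-Tg female held the highest value while the other 3 of its group had 10.8 to 12.3 CPM. The rise of 0.39 ± 0.0997 (edgeR adjusted p = 0.0013) was 0.26 without that mouse, still past the threshold in each leave-one-out fit. By stratum it was 0.97 in females and 0.058 in males of hCYP2B6-Tg, and -0.027 in females and 0.56 in males of Cyp2b-null. Eif2ak3, encoding the endoplasmic reticulum kinase PERK, changed by 0.20 ± 0.108 (adjusted p = 0.12), Eif2ak2, encoding the double-stranded RNA sensor PKR, by -0.18 ± 0.133 (adjusted p = 0.27) and Eif2ak1 by 0.049 ± 0.0442 (adjusted p = 0.38); none of these 3 passed. The ratio of Eif2ak3 to Eif2ak4 differed by -0.15 on the log2 scale (permutation p = 0.52, 8 of 15 mice below their control mean).

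Of the 10 elongation factors 4 were higher and 2 lower, beside 25.0% and 22.5% of all genes, with a median of 0.002. Eef1a2 (ENSMUSG00000016349, chromosome 2, 181147653 to 181157014, minus strand) had 1630, 1909 and 2216 CPM (lowest, median, highest) at 0, 1568, 1899 and 2175 CPM at 1 and 1153, 1501 and 1840 CPM at 10 mg/kg/day. It fell by 0.37 ± 0.051 on the log2 scale (edgeR adjusted p = 1.6e-07), and by 0.15 (adjusted p = 0.0016) on library totals. In hCYP2B6-Tg females the 4 high-dose mice had 1410, 1318, 1153 and 1215 CPM against 2015, 1931, 2054 and 2118 CPM in controls, without overlap, whereas Cyp2b-null males had 1746, 1587 and 1735 CPM against 1909, 1774, 1630 and 1842 CPM, which overlapped. The change was -0.67 in females and -0.24 in males of hCYP2B6-Tg, and -0.47 in females and -0.082 in males of Cyp2b-null. The females of both genotypes passed and the males did not (on library totals Cyp2b-null females did not pass either, at -0.18 with an adjusted p of 0.081), but the difference between the sexes did not (-0.41 ± 0.101, adjusted p = 0.091).

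Eef1a1 (ENSMUSG00000037742, chromosome 9, 78478449 to 78489151, minus strand) moved the opposite way. It had 123, 242 and 399 CPM at 0, 204, 243 and 355 CPM at 1 and 283, 428 and 684 CPM at 10 mg/kg/day, so that the high-dose median lay above every control although the ranges overlapped. The rise was 0.90 ± 0.124 (edgeR adjusted p = 1.4e-07). With the adipocyte marker level as a covariate it was 0.47 ± 0.105 (adjusted p = 5.3e-04), and in Cyp2b-null females it went from 0.99 to 0.38, which did not pass (adjusted p = 0.26). In that stratum it also missed the threshold, at 0.80 (adjusted p = 0.062), without replicate 3 at 10 mg/kg/day.

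Per kb of gene, Eef1a2 reads exceeded Eef1a1 reads by a median of 9.53 times (6.34 to 21.5) at 0 mg/kg/day, 9.02 times (5.98 to 12.6) at 1 mg/kg/day and 3.96 times (2.32 to 6.98) at 10 mg/kg/day. The log2 difference between 10 and 0 was -1.26 (permutation p = 1e-05, adjusted 1.25e-05), with 15 of 15 high-dose mice below the control mean of their stratum and overlap at the edges of the ranges. Without the 6 libraries that stood apart it was -1.14. In Cyp2b-null males it was -0.79, and in the other 3 strata between -1.40 and -1.43.

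Eef2 (ENSMUSG00000034994, chromosome 10, 81176631 to 81182498, plus strand), the translocase, rose by 0.43 ± 0.046 averaged over strata (edgeR adjusted p = 5.6e-10), but not alike in all of them. Cyp2b-null males had 3018, 2658 and 2844 CPM at 10 against 1663, 1624, 1637 and 1939 CPM at 0 mg/kg/day, hCYP2B6-Tg males 2729, 2519, 2641 and 2749 CPM against 1697, 1793, 1693, 2055 and 1642 CPM, and hCYP2B6-Tg females 2462, 2432, 2239 and 2096 CPM against 1783, 1636, 1649 and 1699 CPM. In those 3 strata no high-dose mouse overlapped the controls. Cyp2b-null females had 1877, 1824, 1604 and 2003 CPM against 1868, 1718, 2125 and 1790 CPM: 3 of the 4 high-dose values lay within the control range and the fourth below it. The stratum changes were 0.73 ± 0.097, 0.58 ± 0.086, 0.45 ± 0.091 and -0.038 ± 0.091 in the order given. The effect in females minus that in males was -0.45 ± 0.091 (edgeR adjusted p = 0.023). Eef2 was the only member among 66 to pass that test, which 0.128% of all genes passed. At an unadjusted p below 0.05 there were 12 members, beside 1490 of all 15583 genes. The Eef2 difference lost its call without replicate 2 of Cyp2b-null males at 0 (adjusted p = 0.054) and without replicate 1 of Cyp2b-null males at 10 mg/kg/day (adjusted p = 0.051), with values of -0.44 and -0.43. It was also lost without the 6 libraries that stood apart (-0.45, adjusted p = 0.086) or with no filter on low counts (-0.46, adjusted p = 0.11).

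Eif5a2, a low-count relative of Eif5a, rose by 0.60 ± 0.159 (edgeR adjusted p = 0.0017), which missed the threshold with the adipocyte covariate at 0.46 (adjusted p = 0.058), and Eef1b2, an exchange subunit for eEF1A, by 0.23 ± 0.0529 (adjusted p = 5.1e-04). Eef1g, a subunit of the exchange complex that reloads eEF1A, fell by 0.20 ± 0.047 (edgeR adjusted p = 5.3e-04), a value that was 0.022 on library totals and -0.13 (adjusted p = 0.064) with the adipocyte covariate. Eif5a, which relieves ribosomes that stall and carries the amino acid hypusine, changed by -0.056 ± 0.053, which did not pass (adjusted p = 0.40) and was 0.17 on library totals. Eef2k, the kinase that inhibits eEF2, had medians of 99.8 and 95.5 CPM and a change of 0.0003 ± 0.0708 (adjusted p = 1.00). Beside 25.0% of all genes higher and 22.5% lower, none of the 5 genes tested for enzymes that modify elongation factors rose and 2 fell. These were Eef2kmt, a methyltransferase of eEF2, with -0.32 ± 0.078 (adjusted p = 8.6e-04), and Eef1akmt1, a methyltransferase of eEF1A, with -0.31 ± 0.064 (adjusted p = 1.1e-04). On library totals neither passed, at -0.093 and -0.094. Eif1a, close in sequence to Eif1ax, rose by 0.22 ± 0.0856 (adjusted p = 0.031), and the call was lost without the 6 libraries that stood apart (0.19, adjusted p = 0.068), with the adipocyte covariate (0.16, adjusted p = 0.27), with the replicate block (0.20, adjusted p = 0.052), with no filter on low counts (0.23, adjusted p = 0.054) and without any of 4 single mice. The lowest of these was 0.16 (adjusted p = 0.093), without Cyp2b-null female replicate 3 at 10 mg/kg/day.

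**Figure D4:**
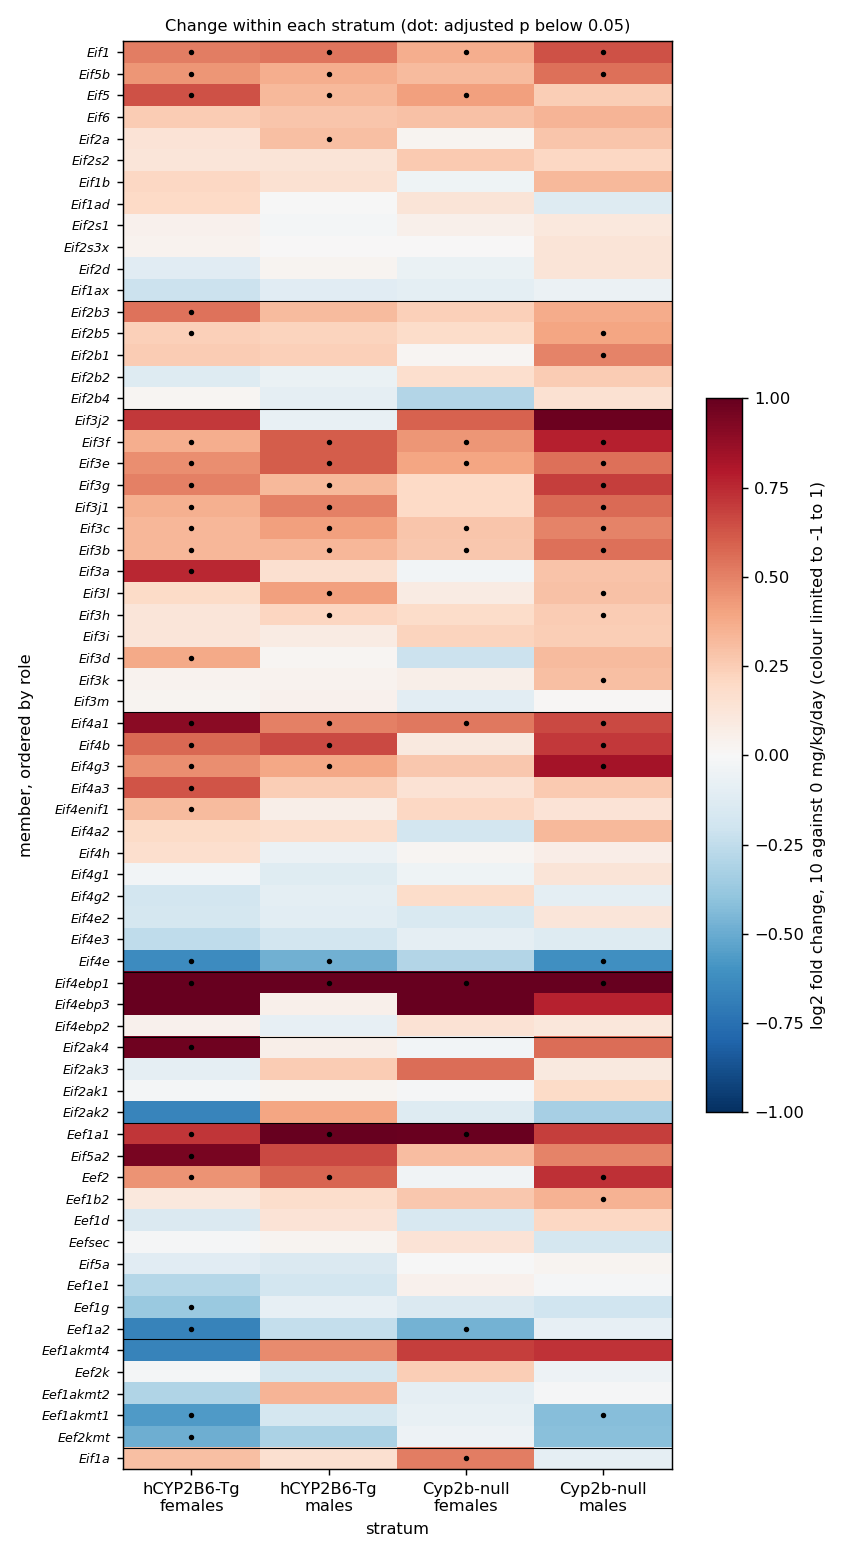
Log2 fold change at 10 against 0 mg/kg/day of the 66 members (rows, ordered by role with lines between roles) in each of the 4 strata (columns), with colours limited to -1 to 1 and dots where the adjusted p was below 0.05. Eif4ebp1, Eif4a1, Eif1, Eif3f, Eif3e, Eif3c and Eif3b carry a dot in every column, and Eef2 in every column but that of Cyp2b-null females.

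Within strata, 23 members were higher and 5 lower in hCYP2B6-Tg females, where 27.7% of all genes passed, and 18 and 1 in hCYP2B6-Tg males, where 18.5% passed. In Cyp2b-null females 10 were higher and 1 lower, with 12.7% of all genes passing, and in Cyp2b-null males 19 and 2, with 15.8%. No member differed between the genotypes in its response to 10 mg/kg/day (0% of all genes in edgeR), nor between the genotypes at 0 mg/kg/day (0% of all genes). At an unadjusted p below 0.05 there were 3 members for the response, beside 1378 of all 15583 genes. At 0 mg/kg/day there were 2 members, beside 535 genes. The interval of these differences was wide for variable members: the genotype difference in Eif4ebp1 was 0.14 ± 0.282.

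At 1 against 0 mg/kg/day no member passed in edgeR, and neither did any other gene (0%). At an unadjusted p below 0.05 there was 1 member, Eif5b at -0.15 ± 0.0555, beside 578 of all 15583 genes. With DESeq2 no member passed either, and 1 of all 15583 genes was called, lower. Members' median change at this dose was 0.007.

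Between untreated females and males 2 members were higher in females and 2 lower, while 7.59% of all genes passed. Eif2s3x, the X-linked gamma subunit of eIF2 that escapes X inactivation, had 74.1, 70.7, 85.9 and 76.4 CPM in Cyp2b-null females and 53.6, 59.5, 51.4 and 62.1 CPM in Cyp2b-null males. The hCYP2B6-Tg females had 85.1, 74.8, 85.7 and 82.3 CPM and the males 58.7, 59.7, 54.9, 49.5 and 58.1 CPM. The sexes did not overlap in either genotype (0.49 ± 0.066, edgeR adjusted p = 1.4e-06). Eef1b2 was higher in females by 0.32 ± 0.073 (adjusted p = 0.0035), though a count that ignores strand would mix its reads with those of Ndufs1 on the opposite strand. Eif4ebp2 was lower in females by -0.33 ± 0.081 (adjusted p = 0.0063) and Eef2k by -0.31 ± 0.097 (adjusted p = 0.039), a call that was lost without any of 11 single mice.

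Genes around these factors were read from lists of the same pathways. Of 28 mTORC1 genes 8 rose and 9 fell, beside 25.0% and 22.5% of all genes. Those with the smallest p fell: Castor2, an arginine sensor relative, fell by 0.54 ± 0.064, Rragd, a Rag GTPase, by 0.59 ± 0.073 and Lamtor1, which anchors mTORC1 at the lysosome, by 0.40 ± 0.046. The largest changes in the list, named after their values were seen, were rises of Ddit4, an inhibitor of mTORC1 signalling, by 2.31 ± 0.324 and of Sesn1, a sestrin, by 1.18 ± 0.186. With the adipocyte covariate 5 of the 28 were higher and 4 lower, beside 2739 and 2576 of all 15583 genes, and on library totals 15 and 6, beside 7519 and 1647. Of 10 partners of the eIF2 stress response tested, 6 rose and 1 fell, beside 25.0% and 22.5% of all genes. Gcn1l1, the activator of GCN2, rose by 0.59 ± 0.064, Ppp1r15a, which directs the phosphatase of eIF2 alpha, rose by 0.81 ± 0.126, and Nck1 fell by 0.31 ± 0.052. To complete that list, Trib3 (0.95), Impact (0.57), Atf4 (0.36) and Ppp1r15b (0.32) also rose, and Dnajc3 (0.09), Atf5 (0.16) and Ddit3 (-0.02) did not pass. Of 19 cap and mRNA regulators 8 rose and 5 fell, beside the same shares of all genes. Mknk2, a kinase of eIF4E, rose by 1.00 ± 0.102, Dhx29, a scanning helicase, rose by 0.30 ± 0.048, and Larp4b fell by 0.28 ± 0.038. All rises and falls named from these lists passed at an edgeR adjusted p below 0.05.

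Of 6 termination and recycling genes 3 rose and none fell, beside 25.0% and 22.5% of all genes. Those that rose were Etf1, the release factor eRF1, by 0.40 ± 0.043, Abce1, the recycling ATPase, by 0.33 ± 0.056, and Gspt2 by 0.99 ± 0.327. Of 9 genes for the enzymes that make hypusine on eIF5A and diphthamide on eEF2, 2 rose, a share near that of all genes. These were Dhps by 0.31 ± 0.057 and Dph1 by 0.20 ± 0.078. The translation factors of mitochondria moved the other way, as did 22.5% of all genes. Of 10 tested none rose and 9 fell, with a median of -0.357 against 0.18 over the cytosolic members: Gfm1 and Gfm2, mitochondrial elongation factor G and its recycling relative, fell by 0.56 ± 0.050 and 0.50 ± 0.041, and Tufm, mitochondrial elongation factor Tu, fell by 0.49 ± 0.050. On library totals 6 of the 10 were lower and none higher, beside 1647 lower and 7519 higher of all 15583 genes. The adipocyte, lymphocyte, erythroid, tendon and muscle fibre markers given above differed between the same doses as all these groups. Beyond the adipocyte covariate and the fits without the 6 libraries, the part of these markers was not tested.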

How the data were processed

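Poly(A) RNA of 48 mouse gastrocnemius samples was sequenced. Raw read counts per gene, with gene lengths, were deposited in 1 table; per the submitters' processing notes HISAT2 and GRCm39 were used, with no version or role, while coordinates and lengths of 65 of 68 members equal GENCODE vM21 (GRCm38). Which program counted reads, and whether by strand, is not given in the sources used here. Counts were fitted with edgeR 4.0.16 (R 4.3.3; filterByExpr, TMM, quasi-likelihood, 12 group coefficients, Benjamini-Hochberg over 15583 genes; 36 residual degrees of freedom; common biological variation 23.5%). The SE is the log2 fold change over the root of F. Averaged effects weight the 4 strata equally. Log2 ratios (0.5 added per count) were tested by permuting dose within strata. DESeq2 1.42.0 was an alternative. Both tests were tested on simulated data. Replicates are separate mice, but labels do not exclude shared cages. Members and lists were chosen with earlier results of these data known. Named members were the 12 largest rises and falls past the threshold (average log2 CPM at least 1), up to 5 of smallest p in other comparisons, and a list of central factors; per pathway list, up to 3 of smallest p. Other members named (Eif3a, Eif3d, Eif3i, Eif3m, Eif3j1, Eif3b, Eif3c, Eif1a, Eif1ax, Eif2s2, Eif5a2, and Eif2s3x and Eef1b2 for the change with dose) were chosen after their values were seen.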

Additional observations from a re-analysis of the deposited data

Results flagged for a closer look

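Of 363 groups of 4 or 5 mice checked over 33 members, 14 had 1 mouse far from the others. The same mice enter the checks of every member, so the checks are not independent and their number was not set against chance. In hCYP2B6-Tg females at 10 mg/kg/day, replicate 2 was such a mouse for 4 members: Eif2ak4 at 30.6 CPM (others 10.8 to 12.3), Eif3j2 at 18.7 (5.56 to 6.82), Eif5b at 210 (156 to 162.9) and Eef2kmt at 3.84 (6.20 to 6.32). Eef2 stood at 1939 CPM in replicate 4 of Cyp2b-null males at 0 mg/kg/day, where the others had 1624 to 1663. Eif4ebp1 stood at 51.1 CPM in replicate 1 of hCYP2B6-Tg females at 0 and Eif4ebp2 at 432 CPM in replicate 3 of Cyp2b-null females at 1 mg/kg/day. Eif5 at 210 CPM and Eif5b at 91.1 CPM were both low in replicate 4 of Cyp2b-null females at 0, and Eif5b was high at 151 CPM in replicate 1 of hCYP2B6-Tg females at 0. The barely detected Eif4ebp3 was flagged at 0 CPM in replicate 4 of Cyp2b-null males at 0, replicate 1 of Cyp2b-null males at 1 and replicate 2 of hCYP2B6-Tg females at 0 mg/kg/day, and at 0.0927 CPM in replicate 3 of hCYP2B6-Tg males at 0. The response of Eef2 to 10 mg/kg/day differed between the sexes by -0.45 on the log2 scale in the interaction test, averaged over genotypes. In hCYP2B6-Tg the change was 0.45 in females and 0.58 in males, and in Cyp2b-null -0.038 and 0.73. As given above, the call was lost without some single mice, without the 6 libraries that stood apart and with no filter on low counts.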

How the results depend on the processing

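Of 62 tested results for named members, 41 kept their call under every alternative. On library totals without scaling, 55 members were higher and 2 lower at 10 mg/kg/day (35 and 5 with TMM), with 40 called in hCYP2B6-Tg males (19), 43 in Cyp2b-null females (11), 34 in Cyp2b-null males (21) and 2 in the difference between the sexes (1). There Eef1g became 0.022 (adjusted p = 0.66), Eif4g1 0.20, Eif5a 0.17 and Eif3m 0.22; all genes split 7519 higher to 1647 lower, against 3892 to 3511. With no filter on low counts 7 members were called in Cyp2b-null females and 0 in the sex difference, without the 6 libraries 6 and 0, and DESeq2 called 3 in the sex difference. Among all genes in Cyp2b-null females, 636 were higher and 774 lower of 35310 with no filter, and 399 and 437 of 15581 without the 6 libraries. DESeq2 called 30 genes higher and 40 lower of 15583 in the sex difference. Leaving out each mouse in turn gave 12 to 22 calls in hCYP2B6-Tg males (lowest without replicate 3 at 10 mg/kg/day), 5 to 13 in Cyp2b-null females (lowest without replicate 3 at 10 mg/kg/day) and 0 to 3 in the sex difference. Replicate numbers share only a number: of 46 same-number pairs 7 had a correlation above 0.1 (median -0.005), and the replicate block gave 34 higher and 6 lower and changed no call of a named member but Eif1a (0.20, adjusted p = 0.052). Depth limits Eif4ebp3, Eif4e1b and Eef1akmt3, which had few counts or none in many libraries. The cause of these shifts was not tested.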
